A study of Mus musculus with 12 samples.

Results

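YAP (gene Yap1) and TAZ (gene Wwtr1), their DNA-binding partner TEAD1 and 7 genes widely used as readouts of their activity (Ccn1, Ccn2, Ankrd1, Axl, Amotl2, Lats2 and Ajuba) were followed through 4 groups of mIMCD3 cells, a mouse kidney epithelial line derived from inner medullary collecting duct. These 10 genes were chosen by name from the 27179 genes of the deposited table, and all 10 passed the filter on low values. The first group, dKO, is a line labelled as a knockout of Actr3 and Ift88. The second, KO-1 CB, is the Actr3 knockout line KO-1 under 0.5 µM of ciliobrevin D, which blocks cytoplasmic dynein, and the third is KO-1 without the drug. The fourth, Ctrl., is a wild type control line. The product of Actr3, ARP3, is part of the actin-branching Arp2/3 complex, and that of Ift88 carries cargo within cilia and is needed to build them. All 4 groups shared 48 h of growth to confluence with 10% fetal calf serum followed by 24 h of serum starvation, during which drug or solvent was present. Each group has 3 libraries of polyadenylated RNA. The labels name 1 line for each genotype, so line and genotype cannot be told apart. The deposited column of 1 Ctrl. library carries another control line number (Ctrl.-2), and whether it is a second control line is not known. The labels do not say how the lines were made or whether they are single clones. Separate cultures per library are not mentioned either, so what the p-values measure is the variation among these libraries, possibly technical.

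YAP and TAZ are transcriptional coactivators that have no DNA-binding domain and act at promoters and enhancers mainly through TEAD factors. The Hippo kinases (Stk3 and Stk4, which act on Lats1 and Lats2) phosphorylate them and hold them in the cytoplasm, whereas a contractile actin cytoskeleton, cell spreading and stiff surroundings favour their entry into the nucleus. Their best known targets include secreted matricellular proteins and, as negative feedback, Lats2 and angiomotin family genes. YAP and TAZ are controlled largely by phosphorylation and location, which RNA levels do not show. In the developing kidney they are needed for normal nephron and collecting duct formation.

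Libraries held 28902562 to 38077987 recovered reads. Normalized counts below are the deposited values (reads divided by a library size factor, not corrected for gene length), each ± is an SD over n = 3 libraries unless named as an SE, and a gene is called when limma's Benjamini-Hochberg adjusted p over 13939 genes is under 0.05. Single libraries are listed by replicate number, and the Ctrl. library that carries no number is listed between the other Ctrl. libraries. Actr3 averaged 871 ± 38.6 normalized counts in dKO, 1573 ± 180 in KO-1 CB, 1218 ± 111 in KO-1 and 8336 ± 293 in Ctrl. Ift88 averaged 604 ± 29.8 normalized counts in dKO, 438 ± 4.29 in KO-1 CB, 617 ± 34.2 in KO-1 and 457 ± 14.9 in Ctrl. In the line labelled as its knockout it was thus not lower than in Ctrl. (dKO against Ctrl. 0.40 ± 0.07 SE on the log2 scale, limma adjusted p = 3.94e-05), and dKO against KO-1 was not called (-0.03 ± 0.07, limma adjusted p = 0.725); such counts check nothing about a small edit within the gene. Of 13 collecting duct and kidney epithelium markers, Cdh1, Epcam, Krt8 and Pax8 were well expressed in every group. Genes that define principal cells were low: the water channel gene Aqp2 was at or near 0, Aqp3 averaged at most 13.2 normalized counts and the vasopressin receptor gene Avpr2 at most 17.3 in any group. The summed level of all 13 markers ran from 64573 to 69487 normalized counts in dKO, 66118 to 69432 in KO-1 CB, 55804 to 60690 in KO-1 and 100298 to 108076 in Ctrl. Summed proximal tubule and loop of Henle markers (Slc34a1 at 0, mostly Lrp2) ran from 5384 to 6625 in dKO, 11912 to 12399 in KO-1 CB, 14705 to 17460 in KO-1 and 10684 to 12779 in Ctrl. Sums stayed at most 237 for 9 fibroblast and smooth muscle markers (Col3a1 at 0), 27.2 for 5 endothelial markers and 363 for 5 leukocyte markers. The part of these marker differences in the results below was not tested.

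TEAD factors bind the letters CATTCC, which read GGAATG on the other strand, and the promoters of the genes under study are shown here because YAP and TAZ reach DNA through that motif. The RefSeq promoter table (GRCm38.p6) was matched for 8 of the 10 genes, all but Ccn2 and Tead1, with 10 promoters of 300 bases in all (250 before the annotated start and 50 after it). The motif on either strand was in at least 1 promoter of all 8 genes, and in 9 of the 10 promoters (90%), against 4817 of all 32851 promoters of the same length (14.7%). The Wwtr1 promoters overlap and hold the same match, which is thus counted in each of them. Counted by gene, the motif was in 2 of 10 further YAP and TAZ target genes (20%) and in 3 of 12 Hippo kinase genes and their partners (25%) that the table holds, against 16.6% of all 27025 genes. A match is a description of letters and not a binding site, and the base composition of these promoters was not matched. The 250 bases before the start of 4 target genes, Ccn1 and Ankrd1, which were highest in Ctrl., and Amotl2 and Ajuba, which were lowest in KO-1 CB, written 5′ to 3′ on the gene's strand with the motif in capitals, were as follows.
Ccn1 (chr3:145649986-145650235, minus strand): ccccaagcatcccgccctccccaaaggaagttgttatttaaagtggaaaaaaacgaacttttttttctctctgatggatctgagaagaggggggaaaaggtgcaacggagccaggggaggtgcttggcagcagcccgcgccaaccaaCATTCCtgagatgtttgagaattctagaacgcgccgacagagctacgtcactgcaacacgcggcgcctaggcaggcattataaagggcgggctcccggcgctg
Ankrd1 (chr19:36119845-36120094, minus strand): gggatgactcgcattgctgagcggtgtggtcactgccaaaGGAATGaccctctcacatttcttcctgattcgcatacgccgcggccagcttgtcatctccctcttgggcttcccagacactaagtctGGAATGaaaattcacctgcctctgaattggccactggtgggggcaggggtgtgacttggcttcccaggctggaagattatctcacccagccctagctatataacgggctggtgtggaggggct
Amotl2 (chr9:102717554-102717803, plus strand): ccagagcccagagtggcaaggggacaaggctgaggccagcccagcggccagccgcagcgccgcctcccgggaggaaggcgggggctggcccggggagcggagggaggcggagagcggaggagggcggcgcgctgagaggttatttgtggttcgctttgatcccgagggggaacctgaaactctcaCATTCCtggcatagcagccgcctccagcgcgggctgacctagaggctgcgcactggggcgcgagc
Ajuba (chr14:54577662-54577911, minus strand): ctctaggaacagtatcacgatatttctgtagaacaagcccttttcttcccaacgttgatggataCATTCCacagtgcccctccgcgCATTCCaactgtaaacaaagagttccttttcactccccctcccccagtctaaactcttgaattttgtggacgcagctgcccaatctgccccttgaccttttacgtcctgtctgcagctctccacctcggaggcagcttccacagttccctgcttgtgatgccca
The shorter stretches around the motif in the coactivator genes, the receptor gene Axl and the kinase gene Lats2 were these.
Yap1 (chr9:8004712-8004757, minus strand): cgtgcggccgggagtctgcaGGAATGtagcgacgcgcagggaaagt
Wwtr1 (chr3:57576021-57576066, minus strand): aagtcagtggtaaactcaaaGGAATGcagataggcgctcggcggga
Axl (chr7:25788941-25788983, minus strand): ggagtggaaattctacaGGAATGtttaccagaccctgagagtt
Lats2 (chr14:57746094-57746139, minus strand): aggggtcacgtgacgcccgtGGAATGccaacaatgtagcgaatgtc
The motif began 103 bases upstream of the start in Ccn1, 65 in Amotl2, 141 in Yap1, 136 in the first of the Wwtr1 promoters and 233 in Axl. Ankrd1 had matches at 210 and 123 bases upstream and Ajuba at 186 and 164, whereas the Lats2 match lay within the transcript, 4 bases after its first base. Ccn1, Amotl2 and Ajuba carry CATTCC on the gene's own strand and the other 5 genes carry it on the opposite strand, as drawn in the plot of motif positions. The 7-letter form CATTCCA was in 3 of the 8 genes (Ankrd1, Lats2 and Ajuba), against 4.95% of all genes.

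**Figure D1:**
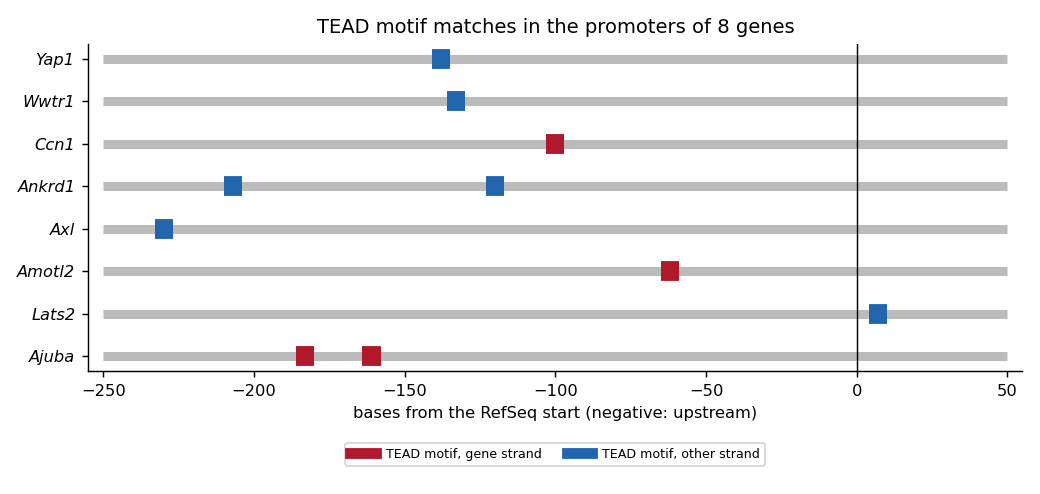
Positions of the TEAD motif in the first listed RefSeq promoter of 8 genes. Grey bars span 250 bases before to 50 bases after the annotated start (line at 0), red boxes mark the motif on the gene's strand and blue boxes on the other strand; Ankrd1 and Ajuba have more than 1 box, and the Lats2 box alone lies after the start.

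The coactivator transcripts changed in different ways, with Wwtr1 covering a wider range than Yap1. Yap1 (Entrez 22601, chromosome 9, 7931999 to 8004638, GRCm38) had 4377, 4286 and 4330 normalized counts in dKO, 4371, 4540 and 4252 in KO-1 CB, 3694, 3847 and 3880 in KO-1, and 5075, 4895 and 4801 in Ctrl. The dKO and KO-1 CB libraries overlapped, and both groups lay between KO-1, which was lowest, and Ctrl., which was highest. Its log2 fold change was -0.37 ± 0.05 (SE) in KO-1 against Ctrl. (limma adjusted p = 5.65e-07), 0.19 ± 0.05 in dKO against KO-1 (limma adjusted p = 0.00169) and 0.20 ± 0.05 in KO-1 CB against KO-1 (limma adjusted p = 0.000765). Yap1 in dKO against KO-1 CB was not called (log2 fold change -0.02, 95% interval -0.12 to 0.08). After quantile normalization that difference was 0.21 (limma adjusted p = 0.000358, range over the alternatives 0.000358 to 0.942), and the calls in KO-1 CB against KO-1 (limma adjusted p = 0.826, range 3.16e-05 to 0.826) and dKO against Ctrl. (log2 fold change -0.18 as deposited, limma adjusted p = 0.481 after it, range 0.000186 to 0.481) were lost. Each such range of adjusted p, here and below, covers all alternatives. These include edgeR and DESeq2, so an end of a range need not be a limma value.

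Wwtr1 (Entrez 97064, chromosome 3, 57455644 to 57575910) had 6285, 6005 and 6093 normalized counts in dKO, 11212, 11823 and 11959 in KO-1 CB, 6612, 7036 and 6764 in KO-1, and 8500, 8470 and 8934 in Ctrl. No library of KO-1 CB was as low as any other library, and the order of the groups was KO-1 CB, Ctrl., KO-1 and dKO. Wwtr1 fell in KO-1 against Ctrl. (log2 fold change -0.34 ± 0.05 SE, limma adjusted p = 2.91e-06; -0.21 after quantile normalization) and rose in KO-1 CB against KO-1 (0.78 ± 0.05, limma adjusted p = 1.82e-11), to 11665 ± 398 against 6804 ± 215 normalized counts. It was also 0.43 ± 0.05 higher on the log2 scale in KO-1 CB than in Ctrl. (limma adjusted p = 1.55e-07). The smaller difference of dKO from KO-1 (-0.15 ± 0.05, limma adjusted p = 0.0111) was lost without KO-1 replicate 2 (limma adjusted p = 0.0570) and after quantile normalization (0.0579), over a range of 0.000215 to 0.0579. Genes on chromosome 3 had a median log2 fold change of -0.39 in dKO against KO-1, and with chromosome medians removed Wwtr1 was 0.24 higher in dKO (limma adjusted p = 0.000215); dKO against Ctrl. (-0.49 ± 0.05, and -0.31 after quantile normalization) was then no longer called (limma adjusted p = 0.386, range 3.52e-24 to 0.386).

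Per kilobase of annotated exon (all exon bases of a gene in GENCODE M21), Wwtr1 exceeded Yap1 in every library. The ratio of their per-kilobase levels was 2.74 ± 0.04 in dKO, 5.15 ± 0.26 in KO-1 CB, 3.46 ± 0.08 in KO-1 and 3.40 ± 0.18 in Ctrl. KO-1 and Ctrl. overlapped in this ratio, while dKO was below and KO-1 CB above all their libraries. Tead1 (Entrez 21676, chromosome 7, 112679356 to 112906784), the TEAD factor of the set, had 5312, 4483 and 4928 normalized counts in dKO, 5797, 6350 and 5591 in KO-1 CB, 5717, 5691 and 5887 in KO-1, and 8989, 7749 and 7816 in Ctrl. All edited libraries lay below all Ctrl. libraries, and KO-1 CB overlapped KO-1. Tead1 fell in KO-1 against Ctrl. (log2 fold change -0.50 ± 0.07 SE, limma adjusted p = 9.04e-07) and again in dKO against KO-1 (-0.24 ± 0.07, limma adjusted p = 0.00382), and in KO-1 CB against KO-1 it was not called (0.03, 95% interval -0.10 to 0.17). In this last comparison quantile normalization gave -0.17 (limma adjusted p = 0.0256, range 0.0256 to 0.845), and it ended the call of dKO against KO-1 CB (-0.27 as deposited, limma adjusted p = 0.605 after it, range 0.000251 to 0.605).

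**Figure D2:**
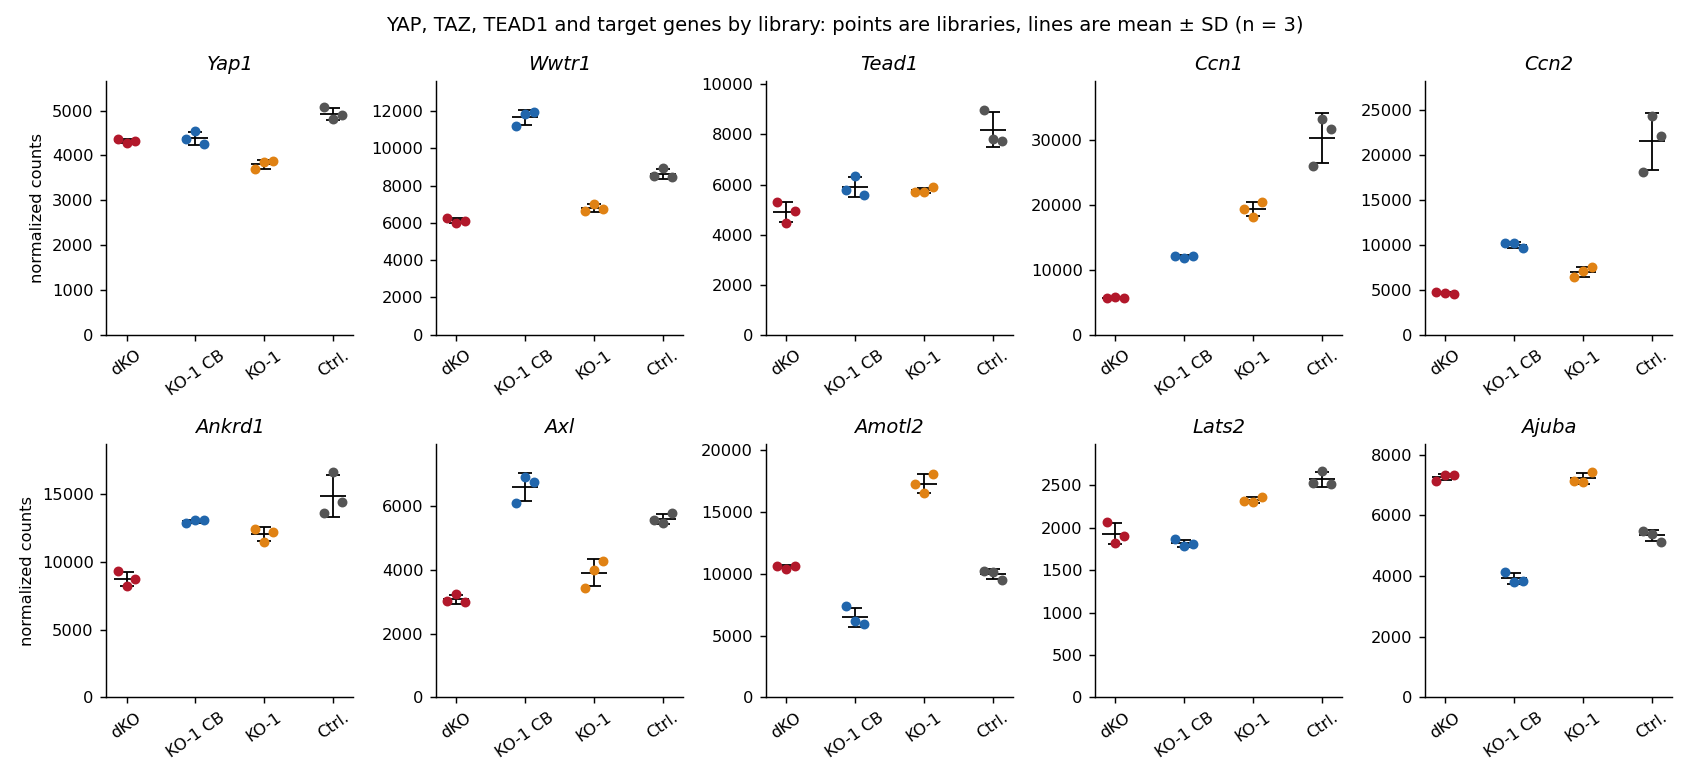
Normalized counts (linear axes from 0) of the 10 genes in dKO, KO-1 CB, KO-1 and Ctrl.; each point is a library and the lines are mean ± SD of 3 libraries. Ccn1 and Ccn2 are highest in Ctrl. and lowest in dKO, Wwtr1 and Axl are highest in KO-1 CB, and Amotl2 is highest in KO-1.

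The secreted matricellular proteins had the widest ranges of the 10 genes. Ccn1 (CYR61; Entrez 16007, chromosome 3, 145646971 to 145649985), which binds integrins and matrix, had 5577, 5809 and 5720 normalized counts in dKO, 12178, 11760 and 12028 in KO-1 CB, 19380, 18153 and 20390 in KO-1, and 25949, 31603 and 33143 in Ctrl. The 4 groups did not overlap, in the order Ctrl., KO-1, KO-1 CB and dKO. Ccn1 fell in KO-1 against Ctrl. (log2 fold change -0.64 ± 0.07 SE, limma adjusted p = 7.22e-08), in KO-1 CB against KO-1 (-0.69 ± 0.07, limma adjusted p = 3.22e-08) and most in dKO against KO-1 (-1.76 ± 0.07, limma adjusted p = 1.36e-14). Its level in dKO was 18.9% of the Ctrl. mean. With the chromosome 3 median removed, the difference of dKO from KO-1 was -1.36 (limma adjusted p = 9.36e-13). In bulk RNA of this kind, fewer cells expressing a gene and less RNA per cell cannot be told apart.

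Ccn2 (CTGF; Entrez 14219, chromosome 10, 24595442 to 24598683), a growth factor-binding matrix protein linked to fibrosis, had 4715, 4641 and 4508 normalized counts in dKO, 10172, 10168 and 9614 in KO-1 CB, 6427, 7072 and 7562 in KO-1, and 18123, 22064 and 24324 in Ctrl. No group overlapped another, but KO-1 CB stood above KO-1, the reverse of Ccn1. Ccn2 fell in KO-1 against Ctrl. (log2 fold change -1.61 ± 0.08 SE, limma adjusted p = 2.34e-13), the largest change among the 10 genes in that comparison. It rose in KO-1 CB against KO-1 (0.51 ± 0.08, limma adjusted p = 7.48e-06; 0.33 after quantile normalization) and fell in dKO against KO-1 (-0.60 ± 0.08, limma adjusted p = 8.1e-07). Genes on chromosome 10 had a median log2 fold change of 0.40 in dKO against KO-1, and with it removed the Ccn2 difference was -0.9998 (limma adjusted p = 5.6e-10). An antisense transcript, Gm15270, overlaps 23.2% of the Ccn2 exon bases; the strand setting of the counting is unknown here, so reads from it cannot be told apart from Ccn2.

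Ankrd1 (CARP; Entrez 107765, chromosome 19, 36111965 to 36119844), a nuclear and sarcomeric ankyrin repeat protein, had 9302, 8258 and 8723 normalized counts in dKO, 12866, 13082 and 13084 in KO-1 CB, 12445, 11509 and 12225 in KO-1, and 13584, 14442 and 16611 in Ctrl. All dKO libraries lay below all others, and the other groups lay close together. Ankrd1 fell in KO-1 against Ctrl. (log2 fold change -0.30 ± 0.07 SE, limma adjusted p = 0.000386; -0.15 after quantile normalization) and in dKO against KO-1 (-0.46 ± 0.07, limma adjusted p = 2.56e-06). In KO-1 CB against KO-1 it was not called (0.11, 95% interval -0.03 to 0.25); this was -0.04 after quantile normalization and 0.16 with chromosome medians removed (limma adjusted p = 0.0329, range 0.0329 to 0.612). The call in KO-1 CB against Ctrl. (-0.19 ± 0.07, limma adjusted p = 0.0159) was lost without Ctrl. replicate 3 (limma adjusted p = 0.154, range 0.00293 to 0.154).

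Axl (Entrez 26362, chromosome 7, 25756500 to 25788924), a receptor tyrosine kinase for GAS6, had 3012, 3231 and 2978 normalized counts in dKO, 6085, 6899 and 6746 in KO-1 CB, 3434, 3999 and 4258 in KO-1, and 5542, 5770 and 5448 in Ctrl. Like Wwtr1, it was highest in KO-1 CB and lowest in dKO, with no overlap between groups. Axl fell in KO-1 against Ctrl. (log2 fold change -0.52 ± 0.07 SE, limma adjusted p = 5.5e-07) and in dKO against KO-1 (-0.34 ± 0.07, limma adjusted p = 0.000153), and rose in KO-1 CB against KO-1 (0.76 ± 0.07, limma adjusted p = 2.99e-09) and against Ctrl. (0.23 ± 0.07, limma adjusted p = 0.0045).

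Of the genes whose products act on YAP and TAZ or their kinases, Amotl2 and Ajuba were higher in KO-1 than in Ctrl., where both CCN genes fell, and Lats2 was highest in Ctrl., as the CCN genes were. Amotl2 (Entrez 56332, chromosome 9, 102717091 to 102733418), an angiomotin family protein that binds YAP and TAZ and keeps them at junctions and in the cytoplasm, had 10594, 10422 and 10664 normalized counts in dKO, 7354, 6160 and 5930 in KO-1 CB, 17250, 16511 and 18029 in KO-1, and 10214, 9480 and 10158 in Ctrl. KO-1 was far above the other groups and KO-1 CB was the lowest. Amotl2 rose in KO-1 against Ctrl. (log2 fold change 0.79 ± 0.07 SE, limma adjusted p = 8.57e-10) and fell in KO-1 CB against KO-1 (-1.42 ± 0.07, limma adjusted p = 1.22e-13) and in dKO against KO-1 (-0.71 ± 0.07, limma adjusted p = 5.91e-09). In dKO against Ctrl. it was not called (0.09, 95% interval -0.05 to 0.22), although quantile normalization gave 0.31 (limma adjusted p = 0.000978, range 0.000978 to 0.559).

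Ajuba (Entrez 16475, chromosome 14, 54567469 to 54577661), a LIM protein that binds LATS kinases and restrains them, had 7138, 7317 and 7316 normalized counts in dKO, 4135, 3818 and 3830 in KO-1 CB, 7128, 7105 and 7412 in KO-1, and 5498, 5130 and 5389 in Ctrl. The dKO and KO-1 libraries overlapped at the top, and KO-1 CB lay below Ctrl. Ajuba rose in KO-1 against Ctrl. (log2 fold change 0.43 ± 0.05 SE, limma adjusted p = 1.05e-07), to 7215 ± 171 against 5339 ± 189 normalized counts. It fell in KO-1 CB against KO-1 (-0.88 ± 0.05, limma adjusted p = 2.66e-12), and in dKO against KO-1 it was not called (0.01, 95% interval -0.09 to 0.11). With chromosome medians removed this last difference was -0.16 (limma adjusted p = 0.00931, range 0.00931 to 1).

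Lats2 (Entrez 50523, chromosome 14, 57689662 to 57746212), a kinase that, like Lats1, phosphorylates YAP and TAZ, had 2064, 1823 and 1902 normalized counts in dKO, 1865, 1783 and 1801 in KO-1 CB, 2313, 2303 and 2364 in KO-1, and 2524, 2510 and 2671 in Ctrl. The dKO and KO-1 CB libraries overlapped below KO-1. Lats2 fell in dKO against KO-1 (log2 fold change -0.27 ± 0.05 SE, limma adjusted p = 0.000146; -0.44 with chromosome medians removed) and in KO-1 CB against KO-1 (-0.36 ± 0.05, limma adjusted p = 5.96e-06). The difference of KO-1 from Ctrl. was small (-0.14 ± 0.05, limma adjusted p = 0.0237), and its call was lost without KO-1 replicate 1 (limma adjusted p = 0.0582), without KO-1 replicate 2 (0.0621), without Ctrl. replicate 3 (0.107) and after quantile normalization (0.302), over a range of 0.0137 to 0.302. In dKO against KO-1 CB it was not called (0.09, 95% interval -0.03 to 0.20), and quantile normalization gave 0.14 (limma adjusted p = 0.0261, range 0.0261 to 0.783). Another annotated gene, Gm49361, shares 42.4% of the Lats2 exon bases on the same strand, so the Lats2 counts are uncertain.

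Levels can be set against each other only per length. The GENCODE M21 lengths used may differ from the annotation behind the counts, so close ranks between genes are uncertain. In normalized counts per kilobase of annotated exon, Ccn1 led in Ctrl. (14974), followed by Ccn2 (7516) and Ankrd1 (5156), while in dKO Ankrd1 led (3036), followed by Ccn1 (2824) and Ajuba (1990). Amotl2, at 2745 per kilobase in KO-1 and 1582 in Ctrl., stood above Ccn2 in KO-1 (2454) and below it in Ctrl. Lats2 was the lowest of the 10 per kilobase in every group, with 277 in dKO and 368 in Ctrl., while Tead1 had 362 in dKO and 603 in Ctrl.

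Counted over the 10 genes, 2 rose and 8 fell in KO-1 against Ctrl., where 69.8% of all tested genes were called (34.4% higher and 35.4% lower). These 10 had a median log2 fold change of -0.36, beside 0.00 over all tested genes, whose median absolute change was 0.39. In dKO against KO-1, 1 rose (Yap1), 8 fell and 1 was not called, with a median of -0.30. Over all tested genes 65.7% were called (32.5% higher and 33.2% lower), and the median absolute change was 0.35. In KO-1 CB against KO-1, 4 rose (Yap1, Wwtr1, Ccn2 and Axl), 4 fell (Ccn1, Amotl2, Lats2 and Ajuba) and 2 were not called, with a median of 0.07, and 65.5% of all genes were called (32.7% higher and 32.9% lower). With a majority of all genes called, a count of calls alone does not set the 10 genes apart; the sizes and directions carry the description.

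Comparisons that share KO-1 or Ctrl. libraries are not independent, and they are given here side by side. In dKO against Ctrl., 1 of the 10 rose (Ajuba, 0.44 ± 0.05 SE on the log2 scale) and 8 fell, with Ccn1 at -2.40 ± 0.07 and Ccn2 at -2.21 ± 0.08, where 67.1% of all genes were called (32.0% higher and 35.1% lower). There, removing chromosome medians put Ccn1 at -1.95 and Ccn2 at -2.60, which reversed their order. In KO-1 CB against Ctrl., 2 rose (Wwtr1 and Axl) and 8 fell, with Ccn1 at -1.33 ± 0.07 and Ccn2 at -1.10 ± 0.08, and 65.1% of all genes were called (33.0% higher and 32.0% lower). In dKO against KO-1 CB, which differ in line as well as in drug, 2 rose (Amotl2 by 0.71 ± 0.07 and Ajuba by 0.89 ± 0.05) and 6 fell, and 73.4% of all genes were called (36.3% higher and 37.0% lower). Among those that fell, Axl was at -1.10 ± 0.07, Ccn2 at -1.11 ± 0.08, Ccn1 at -1.07 ± 0.07 and Wwtr1 at -0.93 ± 0.05. With chromosome medians removed, Ccn1 was at -0.67, Wwtr1 at -0.53 and Ccn2 at -1.50. Ankrd1 (-0.57 ± 0.07) was at -0.36 after quantile normalization. In the plot of fold changes, the CCN genes, Yap1, Tead1, Ankrd1 and Lats2 sat below 0 in all 3 edited groups against Ctrl. Wwtr1 and Axl did so in dKO and KO-1 but not in KO-1 CB.

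**Figure D3:**
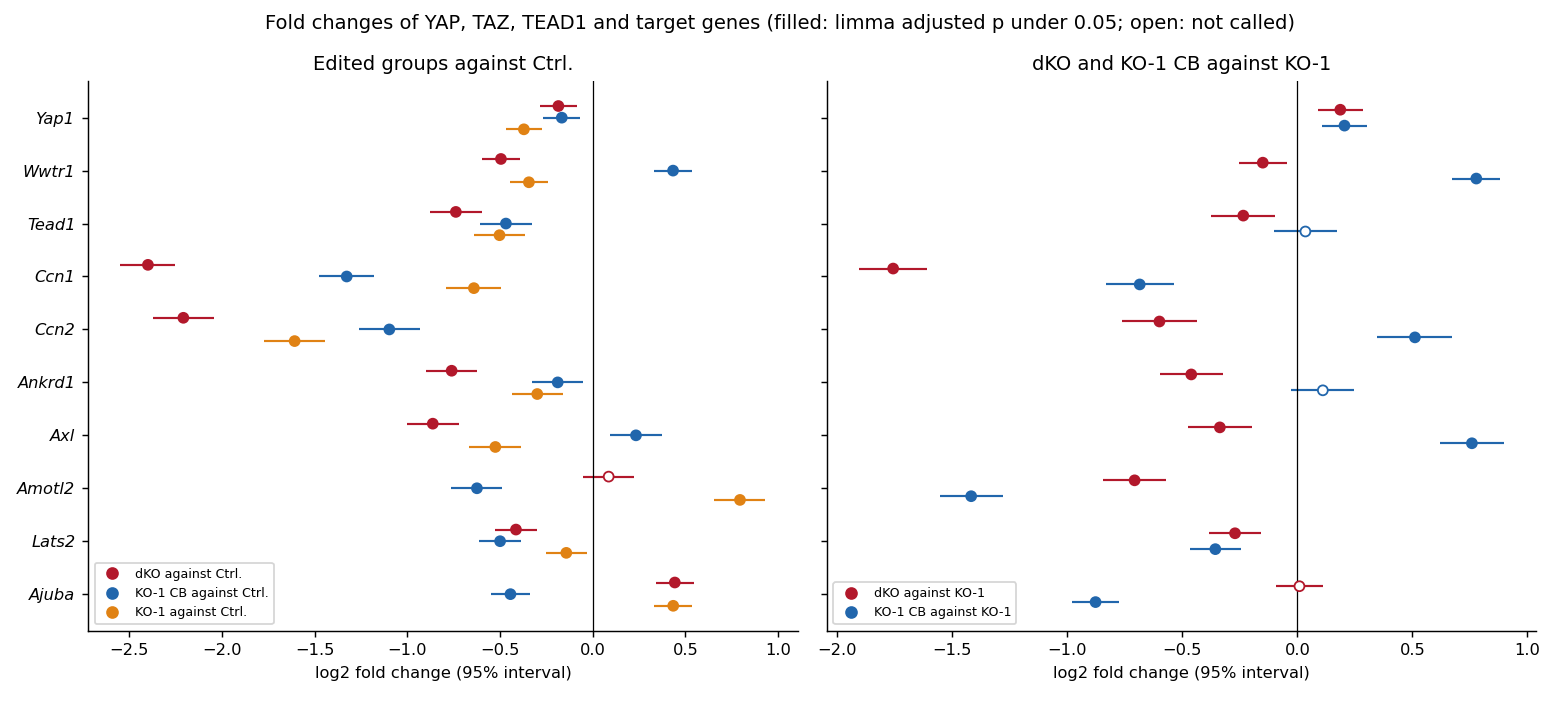
Log2 fold changes of the 10 genes with 95% intervals from limma, for the 3 edited groups against Ctrl. (left) and for dKO and KO-1 CB against KO-1 (right); filled points passed an adjusted p under 0.05. On the right, Ccn1 lies at -1.76 in dKO and Amotl2 at -1.42 in KO-1 CB, and Wwtr1, Ccn2 and Axl lie on opposite sides of 0 in the 2 comparisons.

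Further targets were described with a list of 16 genes, of which 14 were tested (Igfbp3 and Foxf2 were too low). In KO-1 against Ctrl., 8 of the 14 rose, 4 fell and 2 were not called (34.4% of all tested genes rose and 35.4% fell). Their median was 0.30 on the log2 scale, beside a median absolute change of 0.39 over all genes. Ectonucleotidase CD73 (Nt5e) rose by 2.83 ± 0.17 (SE) on the log2 scale, to 130 against 17.4 normalized counts (limma adjusted p = 3.87e-12). The YAP-binding phosphatase gene Ptpn14 rose by 0.79 ± 0.08 (limma adjusted p = 1.37e-08), the RNA-binding protein gene Rbms3 by 0.96 ± 0.10 (limma adjusted p = 1.77e-08) and myoferlin, Myof, by 0.56 ± 0.07 (limma adjusted p = 1.12e-06). So the further targets had a positive median where the 10 genes above had a negative one.

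Losses led among the further targets in dKO against KO-1, where 11 of the 14 fell, 1 rose and 2 were not called (33.2% of all tested genes fell and 32.5% rose), with a median of -0.67. Tissue factor (F3), the initiator of coagulation, fell to 3483 against 10105 normalized counts (-1.54 ± 0.06 SE, limma adjusted p = 2.35e-15). The growth factor gene Tgfb2 fell to 39.8 against 331 normalized counts (-3.04 ± 0.12, limma adjusted p = 1.48e-14). Crim1, a transmembrane BMP-binding protein, fell to 5514 against 12024 (-1.12 ± 0.06, limma adjusted p = 1.75e-12), and the matrix protein gene Ccdc80 fell to 17.0 against 92.0 (-2.36 ± 0.18, limma adjusted p = 2.03e-10). With chromosome medians removed, 12 of the 14 were called.

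Drug treatment of KO-1 was also accompanied by more losses than gains: in KO-1 CB against KO-1, 11 of the 14 fell, 2 rose and 1 was not called (32.9% of all tested genes fell and 32.7% rose), with a median of -0.45. The AMPK-related kinase gene Nuak2 fell to 1177 against 5131 normalized counts (-2.16 ± 0.11 SE, limma adjusted p = 6.72e-13), Ptpn14 to 24288 against 49499 (-1.03 ± 0.08, limma adjusted p = 3.08e-10) and Rbms3 to 420 against 855 (-1.03 ± 0.10, limma adjusted p = 7.13e-09). Dock5, an activator of RAC, rose to 2534 against 1477 (0.78 ± 0.07, limma adjusted p = 1.25e-09). Against Ctrl., 4 of the 14 rose and 7 fell in dKO (median -0.22), with the smallest adjusted p for F3 (-1.88 ± 0.06) and Tgfb2 (-2.86 ± 0.12), and 4 rose and 8 fell in KO-1 CB (median -0.19), likewise for Nuak2 (-1.56 ± 0.11) and Nt5e (2.28 ± 0.17). In dKO against KO-1 CB, 3 rose and 8 fell (median -0.44), with Tgfb2 at -2.55 ± 0.12 and Nuak2 at 1.36 ± 0.11. Over all tested genes, 65.1% to 73.4% were called in these comparisons with Ctrl. and with KO-1 CB.

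Hippo kinases and their partners, 14 genes that were all tested, changed in both directions in every comparison. In KO-1 against Ctrl., 7 fell, 2 rose and 5 were not called, with a median log2 fold change of -0.18. The 9 called of 14 are near the share called over all genes (69.8%). The kinase gene Stk4 fell to 2496 against 4295 normalized counts (-0.78 ± 0.05 SE, limma adjusted p = 1.04e-11), the LATS activator gene Mob1a to 1006 against 1698 (-0.75 ± 0.06, limma adjusted p = 8.25e-10) and the scaffold gene Sav1 to 3742 against 5352 (-0.52 ± 0.05, limma adjusted p = 7.62e-09). Taok2, a kinase upstream of Stk3 and Stk4, rose to 5088 against 3055 (0.73 ± 0.05, limma adjusted p = 8.91e-11). Lats1, the close relative of Lats2, was not called (-0.06 ± 0.06, limma adjusted p = 0.383).

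Of the same 14 genes, 7 rose, 5 fell and 2 were not called in dKO against KO-1, with a median of 0.13. Over all tested genes, 65.7% were called there (32.5% higher and 33.2% lower). Taok3 rose to 2161 against 1464 normalized counts (0.56 ± 0.05 SE, limma adjusted p = 3.18e-09) and Mob1b to 1632 against 993 (0.71 ± 0.07, limma adjusted p = 7.9e-09), while Taok2 fell to 3427 against 5088 (-0.57 ± 0.05, limma adjusted p = 5.28e-09) and Wwc2, a KIBRA relative, to 5871 against 8260 (-0.49 ± 0.05, limma adjusted p = 3.66e-08). The drug comparison, KO-1 CB against KO-1, had 10 that rose, 3 that fell and 1 that was not called, with a median of 0.33. There, 32.7% of all tested genes rose and 32.9% fell. Frmd6, a FERM protein at the apical membrane, rose to 6914 against 3417 (1.02 ± 0.06, limma adjusted p = 3.09e-12) and Mob1b to 2018 against 993 (1.02 ± 0.07, limma adjusted p = 3.43e-11), and Wwc1 (KIBRA) fell to 10088 against 17746 (-0.82 ± 0.06, limma adjusted p = 3.63e-10). Against Ctrl., 4 rose and 8 fell in dKO (median -0.26), and 7 rose and 6 fell in KO-1 CB (median 0.12). In dKO against KO-1 CB, 2 rose and 6 fell (median 0.00). Over all tested genes, 65.1% to 73.4% were called in these comparisons.

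**Figure D4:**
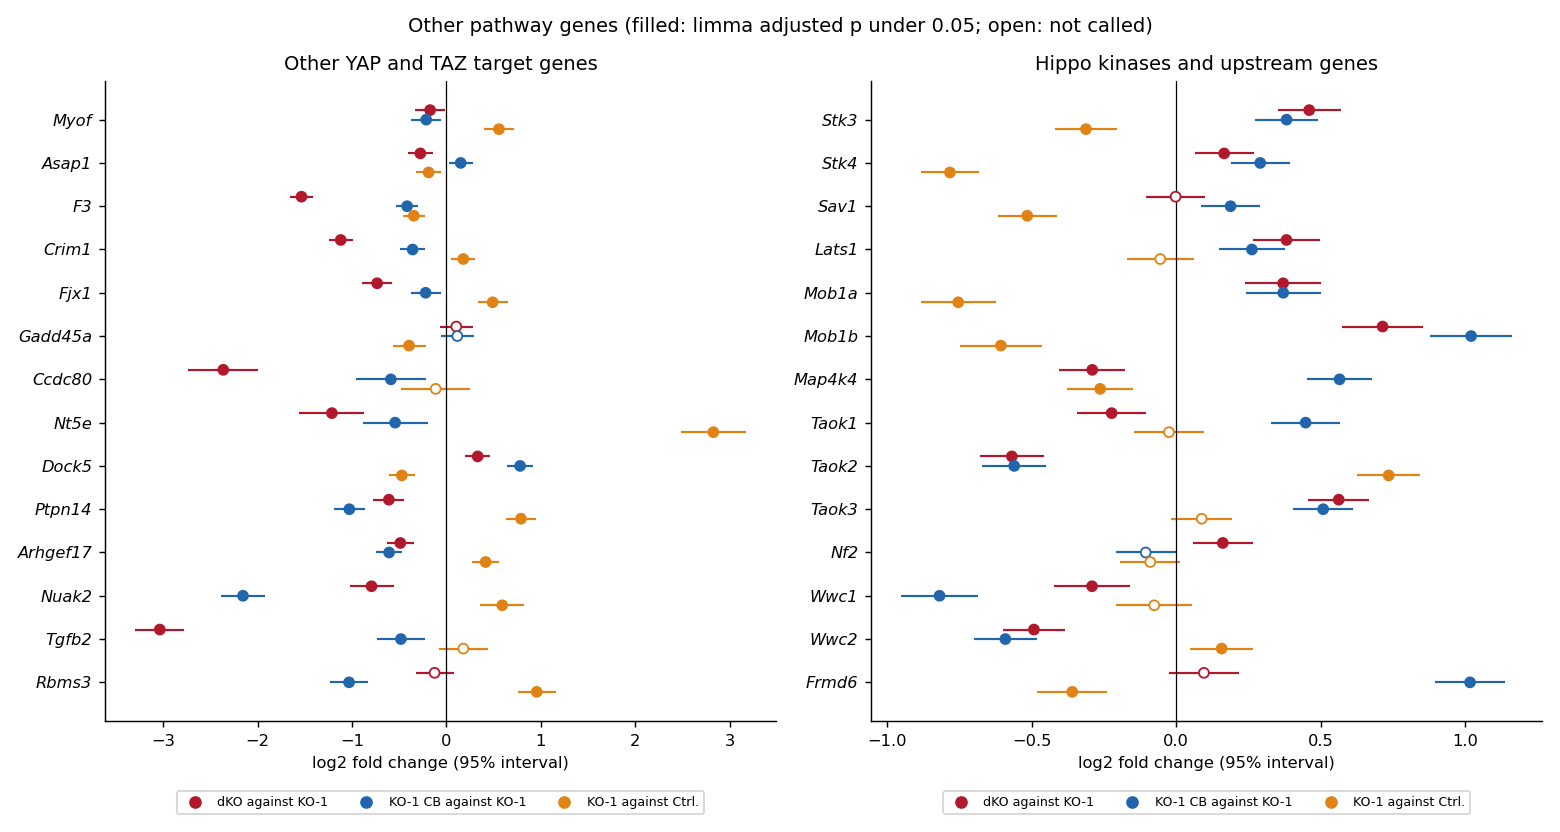
Log2 fold changes with 95% intervals from limma for 14 further YAP and TAZ targets (left) and 14 Hippo kinases and partners (right), in dKO against KO-1, KO-1 CB against KO-1 and KO-1 against Ctrl.; filled points passed an adjusted p under 0.05. Tgfb2 and Ccdc80 lie furthest left in dKO, Nuak2 in KO-1 CB, and Frmd6 and Mob1b furthest right in KO-1 CB.

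Among the other TEAD factors and VGLL cofactors, 5 of 7 genes were tested (Vgll1 and Vgll2 were at or near 0). In KO-1 against Ctrl., 3 fell and 0 of the 5 rose (35.4% of all tested genes fell and 34.4% rose). Tead4 fell to 478 against 973 normalized counts (-1.02 ± 0.08 SE, limma adjusted p = 2.24e-10) and Tead2 to 2870 against 3781 (-0.40 ± 0.06, limma adjusted p = 5.52e-06). Vgll3, a TEAD-binding cofactor, fell to 3.32 against 60.9 (-3.88 ± 0.33, limma adjusted p = 1.52e-09). The genes that rose in dKO against KO-1, where 32.5% of all tested genes rose, were Vgll3 and Vgll4. Vgll3 rose to 12.1 against 3.32 normalized counts (1.59 ± 0.33, limma adjusted p = 0.000278). Vgll4, a competitor of YAP for TEAD, rose by 0.18 ± 0.08 (limma adjusted p = 0.0446). In KO-1 CB against KO-1, Vgll3 rose to 12.5 normalized counts (1.65 ± 0.33, limma adjusted p = 0.000189) and Vgll4 fell (-0.37 ± 0.08, limma adjusted p = 0.000204). The other 3 were not called there, where 65.5% of all tested genes were called. Vgll3 thus stayed near the filter value of 10 in dKO and KO-1 CB, below its Ctrl. level. Against Ctrl., 1 rose and 4 fell in dKO and 4 fell in KO-1 CB, and in dKO against KO-1 CB 1 rose (Vgll4, 0.55 ± 0.08). Over all tested genes, 65.1% to 73.4% were called in these comparisons.

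The relatives of Amotl2 and Ajuba were higher in KO-1 than in Ctrl., as Amotl2 and Ajuba were. All 4 (Amot, Amotl1, Limd1 and Wtip) rose in KO-1 against Ctrl., beside 34.4% of all tested genes. The rises were 0.14 ± 0.05 (SE) for Amotl1 to 0.29 ± 0.06 for Wtip on the log2 scale. All were smaller than the median absolute change over all tested genes, which was 0.39 there. Amot, the founding angiomotin, fell to 6502 in dKO against 10687 normalized counts in KO-1 (-0.71 ± 0.07, limma adjusted p = 4.23e-09), and to 6174 in KO-1 CB against the same KO-1 level (-0.79 ± 0.07, limma adjusted p = 1.04e-09). The other 3 were not called in dKO against KO-1, and in KO-1 CB against KO-1 Wtip rose (0.30 ± 0.06, limma adjusted p = 0.000338). Against Ctrl., 3 rose and 1 fell in dKO and 2 rose and 1 fell in KO-1 CB, and in dKO against KO-1 CB 1 rose and 1 fell. Over all tested genes, 65.1% to 73.4% were called in these comparisons.

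Of the other CCN genes, 3 of 4 were tested (Ccn3 was at or near 0). Ccn4 (WISP1) averaged 1586 normalized counts in dKO, 946 in KO-1 CB, 1725 in KO-1 and 1893 in Ctrl. It fell in KO-1 CB against KO-1 (-0.87 ± 0.06 SE, limma adjusted p = 5.24e-11), and neither KO-1 against Ctrl. (-0.13 ± 0.06, limma adjusted p = 0.0509) nor dKO against KO-1 (-0.12 ± 0.06, limma adjusted p = 0.0777) was called. Ccn6, at 77.2 normalized counts in KO-1 and 25.4 in Ctrl., rose there (1.60 ± 0.23, limma adjusted p = 3.07e-06), and fell to 50.5 in dKO (limma adjusted p = 0.0263) and 24.1 in KO-1 CB (limma adjusted p = 1.88e-06) against KO-1. Against Ctrl., 1 rose and 1 fell in dKO and 1 fell in KO-1 CB, and in dKO against KO-1 CB 2 rose. Over all tested genes, 65.1% to 73.4% were called in these comparisons. Ccn5 was not called in any of the 6 comparisons.

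The relatives and ligands of AXL fell with Axl in dKO but went the other way in KO-1. In KO-1 against Ctrl., where Axl fell, all 4 genes (Tyro3, Mertk, Gas6 and Pros1) rose, beside 34.4% of all tested genes. Among them, the receptor gene Mertk rose to 273 against 63.0 normalized counts (2.09 ± 0.12 SE, limma adjusted p = 1.86e-12) and the ligand gene Pros1 to 2940 against 1535 (0.94 ± 0.07, limma adjusted p = 2.43e-10). All 4 fell in dKO against KO-1, beside 33.2% of all tested genes. Pros1 was at 50.6 against 2940 (-5.83 ± 0.07, limma adjusted p = 8.83e-24) and Mertk at 98.9 against 273 (-1.45 ± 0.12, limma adjusted p = 6.12e-10). In KO-1 CB against KO-1, where Axl rose, Pros1 rose (0.21 ± 0.07, limma adjusted p = 0.0137) and the other 3 fell, beside 32.9% of all tested genes. Mertk was at -0.65 ± 0.12 (limma adjusted p = 5.04e-05) and the ligand gene Gas6 at -1.59 ± 0.31 (limma adjusted p = 0.000121). Against Ctrl., 1 rose and 2 fell in dKO and 3 rose in KO-1 CB, and in dKO against KO-1 CB 3 fell. Over all tested genes, 65.1% to 73.4% were called in these comparisons.

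For each of the 10 genes, the 3 genes with the most similar levels were found by Pearson's r of log2(value + 1) over the 12 libraries, among 10609 genes with a mean of at least 100; the libraries fall into 4 groups, so r here mostly describes the order of the group means. Ccn1 was followed most closely by Ext1 (r = 0.992), Tinagl1 (r = 0.991) and Thbs1 (r = 0.990), and Ccn2 by Arhgef5 (r = 0.994), Pgrmc1 (r = 0.989) and Nop2 (r = 0.989). For Wwtr1 they were Per1 (r = 0.995), Hspa1b (r = 0.994) and Ero1a (r = 0.994), and for Axl Trib1 (r = 0.992), Bin1 (r = 0.991) and Otud7b (r = 0.988). Ajuba was closest to the integrin genes Itgb6 (r = 0.993) and Itga2 (r = 0.990) and to Clmn (r = 0.988). Amotl2 was closest to Npy2r, Smad6 and Slc16a12 (each r = 0.987). The closest genes to Yap1 were Fkbp5 (r = 0.982), Prkaa1 and Prr5 (both r = 0.978), to Tead1 Epb41l3 (r = 0.975), Tmem167b (r = 0.969) and Pgrmc2 (r = 0.967), to Ankrd1 Zfp280d (r = 0.982), Mfsd14a (r = 0.978) and Enc1 (r = 0.975), and to Lats2 Ugt8a (r = 0.982), Ccnj (r = 0.973) and Lgr4 (r = 0.970). None of the 10 genes was among the 3 closest to another of them.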

How the data were processed

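Polyadenylated RNA was sequenced in 12 libraries. Per the submitters' processing notes, the tools were featureCounts 2.0.1, HISAT2 2.2.1, fastp 0.23.2 and DESeq2 2.11.40.7, and GRCm38 and mm10 are named as builds. The sources used here give no order, options or strand setting. The deposited values are a signal, featureCounts counts divided by a library size factor, since 100% of the values in each column are whole multiples of 1 step (tolerance 0.01 reads), from which whole reads were recovered. Of the Entrez IDs, 25275 were named from RefSeq, 18 from GENCODE M21, and 1886 have no name. One control column, numbered as another control line (Ctrl.-2), matches no title; it was used as a Ctrl. library with no replicate number, its group resting on the control name.

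Libraries were grouped by their titles. Between replicates, chi-square divided by its degrees of freedom was 4.48 to 16.9, above counting noise. Each of the 10 genes had at least 1444 reads in every library, a counting error of at most 2.63%. The 13939 genes that reached 10 in 3 or more libraries were fitted as log2(value + 1) with limma 3.58.1 (trend, 1 fit of 12 libraries, two-sided) in R 4.3.3 for 6 pairwise comparisons, with Benjamini-Hochberg adjustment over all of them in each comparison. Fold changes are on that scale. The steps were tested on simulated data with 200 changed genes. There, 3.98% to 9.45% of calls were false, and 54% to 72% of the 1.25-fold changes were called. In the data 65.1% to 73.4% of the 13939 genes were called per comparison, a far larger share. The simulated rates therefore do not describe the reported calls. As alternatives, recovered reads were tested with DESeq2 1.42.0 and edgeR 4.0.16, and the limma fit was repeated with TMM rescaling, quantile normalization, other pseudocounts (5 and 0.5), a minimum mean of 50 or no filter, the compared groups alone, the replicate number as a block, leaving out each library, and, chosen because an earlier analysis of these data used it, chromosome medians removed. Motifs were searched with Python 3.11.15 in RefSeq promoters of GRCm38.p6.

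The 10 genes, the lists and the tests were chosen with earlier results of these data known. Named genes are the 10, Actr3 and Ift88, in each comparison the called genes of a list, at most 4, that had the smallest adjusted p (where 0 were called, at most 2 by raw p), and the 3 most similar genes to each of the 10; Lats1, Gas6 and the marker genes were named outside this rule, after their values were seen.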

Additional observations from a re-analysis of the deposited data

How the results depend on the processing

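Each library has at least 28902562 reads and the 10 genes are well expressed, so depth limits none of their values; the labels name 1 line per genotype, so line and edit cannot be told apart. Over the alternatives, 8 to 10 of the 10 genes were called in each comparison, beside 8191 to 10638 genes among all those tested. As reported, 65.1% to 73.4% of all tested genes were called, so this count does not set the 10 apart. The counts of further targets and of all genes called stayed within 1.5 times those reported. For the 10 genes' fold changes, leaving out 1 library kept direction and call in 711 cases. It lost a call in 5 and reversed a direction in 4. Other alternatives kept both in 642, lost a call in 7 and reversed a direction in 8. They gained a call with no change of direction in 3. Of the 8 reversed values, those called were Wwtr1 and Ajuba with chromosome medians removed, and Tead1 and Yap1 after quantile normalization. Wwtr1 in dKO against KO-1 was called in both directions (-0.15 as deposited, 0.24 with chromosome medians removed). Without the control library numbered Ctrl.-2 no call or direction among the 10 genes changed. Reversals were seen in differences that were small or not called, and the cause was not tested. With chromosome medians removed (chosen after earlier results), Wwtr1 in dKO against KO-1 became 0.24 and Ajuba -0.16, and Lats2 in dKO against KO-1 CB became -0.0172. Quantile normalization gave -0.17 for Tead1 and -0.0372 for Ankrd1 in KO-1 CB against KO-1, and 0.21 for Yap1 in dKO against KO-1 CB. For that Yap1 difference TMM gave 0.0039, edgeR gave 0.0045, and leaving out 1 library gave -0.0406 to 0.0068 (the highest without KO-1 CB replicate 2). Without that library Tead1 in KO-1 CB against KO-1 was -0.0180, the lowest of a range up to 0.0738. Ajuba in dKO against KO-1 was -8.85e-06 without KO-1 replicate 1 and -0.0023 without KO-1 replicate 2, and up to 0.0282 without other libraries. The TEAD motif count fell from 8 genes with 6 letters to 3 with the 7-letter form, which is rarer by construction. Same-numbered libraries did not visibly deviate together (r of -0.04 to 0.07 over 15 pairs, against -0.10 to 0.10 over 30 other pairs). With 3 libraries per group this cannot exclude that same-numbered libraries were prepared together. With the replicate block, Lats2 in KO-1 against Ctrl. was -0.14 with a limma adjusted p of 0.0636, the genes called there numbered 9, and no other call among the 10 genes changed.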
